A study of Homo sapiens with 34 samples.

Results

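The exons described here are cassette exons that most transcripts of hTERT RPE-1 cells left out. A cassette exon is either spliced in between its neighbours or skipped, and its inclusion is given as PSI, the percent of junction reads that include it. Members were exon events longer than 27 bases, with at least 20 inclusion plus exclusion reads in each of the 4 control libraries and a mean PSI of these libraries from 2 to under 20. The rule kept 2823 of 104485 exons of that length and depth, in 2083 named genes, with 6 exons that carry no gene name. Of the members, 1143 had a length divisible by 3 and 1680 did not. There were 518 genes with more than 1 member and at most 8 in a gene, so members of 1 gene share transcripts and are not independent, and no members overlapped. The members were thus chosen by the PSI and reads of the controls, and control values are given as description only. Just inside the bounds lay exons of MMP11 and STX2 (both 2.0% in the controls) and of RWDD2A (19.972%) and CDC14B (19.995%), and just outside lay exons of IDE and SECISBP2 (both 1.998%), PSPH (20.002%) and AFMID (20.068%).

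The human cells, hTERT RPE-1, derive from retinal pigment epithelium and are kept dividing by telomerase, and their total RNA was sequenced after depletion of ribosomal RNA in stranded libraries. All groups, controls included, were transduced by lentivirus with a hybrid guide RNA (hgRNA), which pairs guides for Cas9 and Cas12a in 1 transcript. All were then held in puromycin (20 µg/ml) over 72 h and grown for 4 days without it. Intronic deletions were made in DDX5 and FNBP4 (hgRNAs 1 and 2), and deletions that the treatment labels describe as taking in a premature-stop (PTC) exon were made in DDX17, HDAC7 and FNBP4 (hgRNAs 3 and 4), with 2 hgRNAs and 4 libraries each. The sample titles call all of these intronic. A deletion in HNRNPD used 1 hgRNA, and knockouts of DDX5, of DDX17, of FNBP4 and of HDAC7 used 1 each (2 libraries per group). The controls carried 2 hgRNAs for intergenic deletions (4 libraries). The 17 hgRNA groups held 2 replicates each, 34 libraries in all, from edited populations rather than clones. Both HDAC7 deletion hgRNAs share a Cas9 guide, as do FNBP4 hgRNAs 2 and 3, and the labels give the FNBP4 and HDAC7 knockouts the same Cas9 guide, so those knockouts are named here as labelled.

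Members drew 218085 to 371883 reads per library, with a median of 60 reads per member and library and 3.15 inclusion reads, so a single member's PSI is coarse. The labelled cell type was checked in the authors' deposited table of RPKM (reads scaled to gene length and library size). Of 15 markers of retinal pigment epithelium 6 reached 1 RPKM in the controls, with DCT, TTR and TYR listed at 0, while 0 of 5 neural retina and 4 of 5 mesenchyme markers did. Summed over each list and across the hgRNA columns, levels were 460 to 792 RPKM for the pigment epithelium markers and 287 to 782 RPKM for the mesenchyme markers. The pigment epithelium list included the keratins KRT8 and KRT18, and a sum does not show which genes carry it. In the authors' deposited table DDX5 stood at 190 and 194 RPKM in its deletions and 73.4 RPKM in its knockout, against 238 RPKM in the controls. FNBP4 stood at 35.2 and 27.2 RPKM in the deletions of its PTC exon, against 14.2 RPKM in the controls. That PTC exon, of 103 bases at chr11:47732117-47732219, is no member, since its median PSI in the controls was 23.9%. It measured 0.96 to 5.45% in the 4 libraries of its deletion, and 16.7 to 31.6% in the controls. Low values were not confined to its deletion: it read 4.55 and 5.88% in the FNBP4 knockout and 4.42 and 16.5% in the DDX5 knockout. The other edited libraries ran from 10.8 to 47.6%. Since RNA came from edited populations, a change in all cells and a larger change in a share of them cannot be told apart.

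In a coding sequence, an exon whose length is a multiple of 3 can be added without moving the reading frame of the exons after it, while any other length shifts that frame. Added bases can also carry a stop codon. A stop well upstream of the last exon junction marks the transcript for nonsense-mediated decay, and exons that bring such a stop are called poison exons. Many RNA-binding and splicing proteins carry poison exons in their own genes, and DDX5 and DDX17 are RNA helicases that act in splicing, HNRNPD is an RNA-binding protein that binds AU-rich RNA, FNBP4 binds formins and HDAC7 is a histone deacetylase.

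The sequences below come from GENCODE v29 transcripts on GRCh38 and belong to exons that later results turn on. They were chosen after their values were seen. In the first set each sequence runs from the exon's first base to the first stop codon in the frame of the coding exon before it, and capitals mark that stop. The exons are those of EIF4A2 (111 bases, chr3:186788310-186788420, plus strand), VTI1B (162 bases, chr14:67663029-67663190, minus strand), SAT1 (110 bases, chrX:23784294-23784403, plus strand) and WDR73 (113 bases, chr15:84645973-84646085, minus strand).
EIF4A2: gagtcgaTAG
VTI1B: gggagattagtaattttTAG
SAT1: gttacagtctcTAG
WDR73: gtgttggggatacacagTGA

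In the second set whole exons are shown that read through without a stop. Those of DYSF (42 bases, chr2:71549350-71549391, plus strand), NEK1 (84 bases, chr4:169508769-169508852, minus strand), SDCCAG8 (96 bases, chr1:243293399-243293494, plus strand) and TPM1 (126 bases, chr15:63043706-63043831, plus strand) keep the frame. The 100-base exon of FNBP4 (chr11:47725737-47725836, minus strand) shifts it.
DYSF: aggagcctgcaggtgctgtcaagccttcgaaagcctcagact
NEK1: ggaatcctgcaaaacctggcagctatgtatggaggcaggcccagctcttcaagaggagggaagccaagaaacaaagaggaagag
SDCCAG8: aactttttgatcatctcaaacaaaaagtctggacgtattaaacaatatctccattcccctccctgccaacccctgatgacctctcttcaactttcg
TPM1: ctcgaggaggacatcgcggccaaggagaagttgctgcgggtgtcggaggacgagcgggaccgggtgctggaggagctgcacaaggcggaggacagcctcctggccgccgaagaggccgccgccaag
FNBP4: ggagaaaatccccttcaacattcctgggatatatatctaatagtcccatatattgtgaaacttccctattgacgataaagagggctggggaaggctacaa

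The first question was how often rare exons are frame-neutral in length. Of the 2823 rare exons 40.5% had a length divisible by 3 (95% Wilson interval 38.7 to 42.3%). Over the classes of control inclusion the share was 36% (35.2 to 36.8%) of 14947 exons under 2%. Within the rare exons it was 37.6% (35.2 to 40.2%) of 1437 exons at 2 to under 5%, 42.4% (39.0 to 45.9%) of 804 at 5 to under 10% and 44.8% (40.9 to 48.9%) of 582 at 10 to under 20%. Above them it was 45.9% (43.7 to 48.2%) of 1882 exons at 20 to under 80%, 41.9% (40.9 to 43.0%) of 8305 at 80 to under 98% and 38.3% (38.0 to 38.7%) of 76528 at 98% or more. The share was thus highest at intermediate inclusion and lower toward both ends, and the interval of the rare exons lay below that of the intermediate class. These intervals cover counting error only and treat exons as independent, which exons of 1 gene are not. Microexons of 27 bases or less were outside the rule, and at the same inclusion 57 of 84 (67.9%, 57.3 to 76.9%) were divisible by 3.

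**Figure D1:**
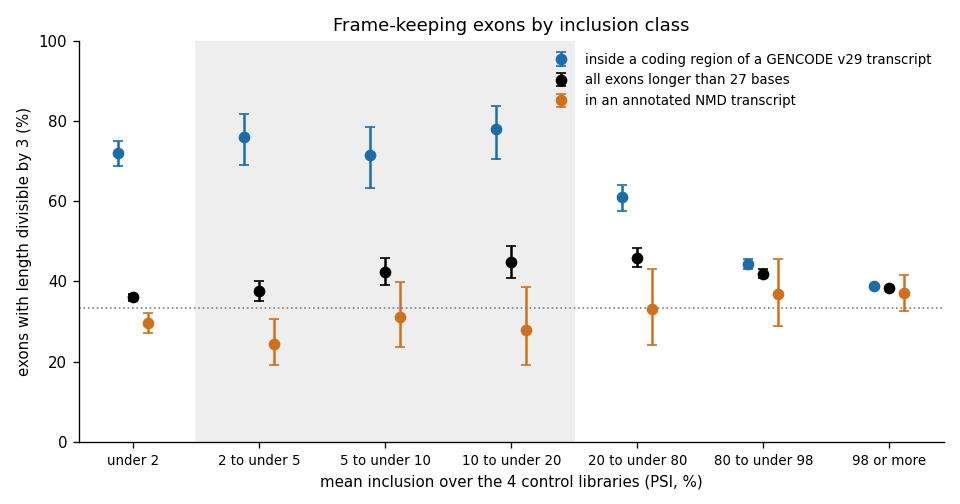
Percent of exons with a length divisible by 3 (vertical axis) by mean PSI in the 4 control libraries (horizontal axis), for all exons, exons inside coding sequence and exons of transcripts annotated for nonsense-mediated decay (NMD), with 95% Wilson intervals the members' range shaded in grey and a dotted line at 1 in 3. All exons run from 36% in the lowest class to 45.9% at 20 to under 80% inclusion, rare coding exons stand at 75.2% and rare exons of decay transcripts at 27.1%.

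Split by annotation, the rare exons were of very different kinds. Of the 2823, 1613 (57.1%) matched an exon of GENCODE v29 on GRCh38 at both ends. There were 452 inside the coding sequence of a protein-coding transcript, 425 in transcripts annotated for nonsense-mediated decay, 346 in 5′ UTRs, 221 in non-coding transcripts of coding genes, 120 across an edge of a coding sequence, 47 in non-coding genes and 2 in 3′ UTRs. The remaining 1210 (42.9%) had no matching exon, against 7.02% of the exons at 98% inclusion or more.

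Among the 452 coding rare exons 340 (75.2%, 71.0 to 79.0%) had a length divisible by 3. That share was 72.0% (68.7 to 75%) in coding exons under 2% inclusion, 60.9% (57.6 to 64.0%) at 20 to under 80%, 44.3% (43.0 to 45.5%) at 80 to under 98% and 38.8% (38.4 to 39.1%) at 98% or more. It was lower in each class of higher inclusion from the rare exons onward, with intervals that did not overlap. Lengths without regard to frame would give 1 in 3. The share was below that in decay transcripts, at 27.1% (23.1 to 31.5%), and above it in exons without a matching annotated exon, at 37.6% (34.9 to 40.4%). The intervals took in 1 in 3 in 5′ UTRs, at 28.6% (24.1 to 33.6%), at coding edges, at 31.7% (24.0 to 40.4%), in non-coding transcripts of coding genes, at 33.9% (28.0 to 40.4%), and in the 47 exons of non-coding genes, at 44.7% (31.4 to 58.8%). An exon that breaks the frame is usually annotated as decay rather than coding, so these classes are themselves drawn with the frame in view.

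Each exon was also read in the frame of its upstream coding exon, taken from protein-coding transcripts. This needed a matching annotated exon. An exon inside an annotated coding sequence is as a rule open in its own transcript, so this reading is not independent of the annotation classes. A frame could be read for 1076 rare exons that lie between coding exons. Of these, 552 (51.3%) held an in-frame stop, 338 (31.4%) were open and kept the frame and 186 (17.3%) were open and shifted it. Where a stop lay relative to the last exon junction was not checked. Among lengths divisible by 3 the stop share was 171 of 509 (33.6%), and among the others 381 of 567 (67.2%), so divisible length did not mean an open exon. The exon of EIF4A2, a translation initiation helicase, is of this kind: its 111 bases are a multiple of 3, and its stop begins at base 8. VTI1B, a SNARE protein of endosomal traffic, has a 162-base exon whose stop begins at base 18.

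**Figure D2:**
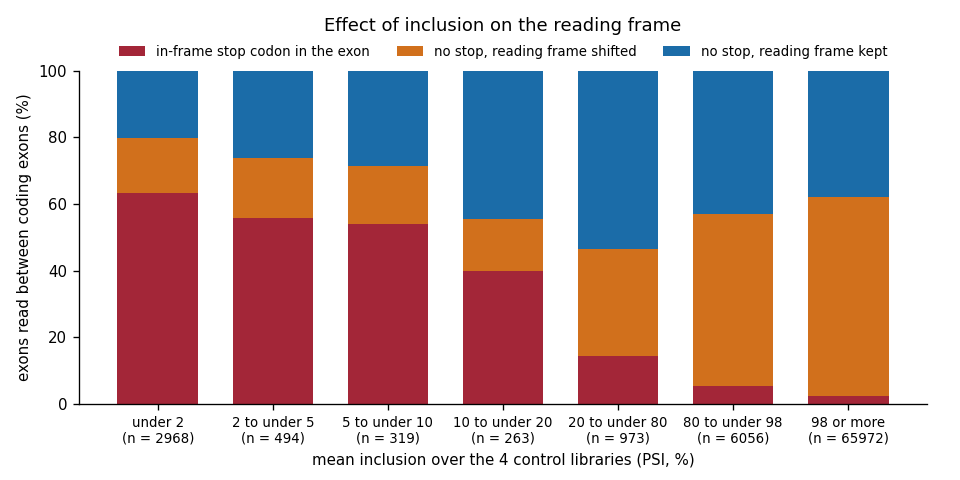
Stacked percent of exons that lie between coding exons (vertical axis) by class of control PSI (horizontal axis, with n), split into those with an in-frame stop, open with the frame kept and open with the frame shifted. Stops make up 63.3% below 2% inclusion, 51.3% over the rare exons as a whole and 2.44% at 98% or more.

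Stop-bearing exons were rarer where inclusion was higher. They were 63.3% of the exons read under 2% inclusion, 55.7% at 2 to under 5%, 53.9% at 5 to under 10%, 39.9% at 10 to under 20%, 14.3% at 20 to under 80%, 5.33% at 80 to under 98% and 2.44% at 98% or more. Among lengths divisible by 3, the share with a stop was 37.2% at 2 to under 5% and 22.5% at 10 to under 20%, against 69.0% and 63.4% at the same inclusion for the other lengths.

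In other properties the length classes lay close together. The median length of the members was 105 bases, median GC content 50.2% in exons divisible by 3 and 49.3% in the others, and median host gene expression in the authors' deposited values 18.6 and 16.6 RPKM in the controls. Median control PSI was 5.21% and 4.72%. In 655 members (23.2%) 1 of the 2 inclusion junctions outnumbered the other by more than 5 to 1 over the controls. These were 20.9% of the exons divisible by 3 and 24.8% of the others, and in 257 members (9.1%) 1 junction had no read at all, so some members may be alternative ends of a transcript rather than cassettes.

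Lists of genes drawn up with earlier results in view show where rare exons sit. SR proteins with TRA2 and their kinases, the serine-arginine-rich regulators of splicing, had 17 rare exons in 9 of 24 genes, 5 divisible by 3 and 12 not, and 8 of the 11 that could be read held a stop. Core spliceosome proteins had 23 in 15 of 50 genes (8 and 15, with a stop in 12 of 15). HnRNPs and other splicing regulators had 28 in 18 of 53 genes (14 and 14, with a stop in 7 of 12). Nonsense-mediated decay and exon junction factors had 8 in 4 of 19 genes (2 and 6), and DEAD and DEAH box helicases had 8 in 7 of 42 genes (3 and 5). Genes of the actin cytoskeleton and adhesion went the other way, with 37 rare exons in 25 of 66 genes, 29 divisible by 3 and 8 not, and a stop in 5 of the 26 read. Chromatin regulators had 55 in 36 of 87 genes (29 and 26), and DNA damage genes 31 in 22 of 79 (16 and 15). Against 40.5% over all members these are shares of 17 and 37 exons, and none was tested.

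Levels were then followed through the edited libraries. In 1645 members at least 20 reads were present in every edited library, 679 divisible by 3 and 966 not, and the other 1178 were not tested. This filter used the depth, not the PSI. Median PSI over the exons divisible by 3 ranged from 4.24 to 5.55% in the 22 deletion libraries (median 5.1%), from 4.23 to 5.58% in the 8 knockout libraries (median 4.86%) and from 5.13 to 5.19% in the 4 controls. For the other lengths it ranged from 3.79 to 4.88% in deletions (median 4.52%), from 3.59 to 5.18% in knockouts (median 4.17%) and from 4.44 to 4.62% in the controls. Exons divisible by 3 had the higher median in all 34 libraries, by 0.18 to 1.13 points. That order was already present in the controls that chose the members.

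By target, the median of the exons divisible by 3 averaged 5.40 ± 0.127% in the DDX5 deletion (SD, n = 4 libraries), 5.36 ± 0.145% in the FNBP4 intron deletion (n = 4), 5.10 ± 0.136% in the DDX17 deletion (n = 4), 4.97 ± 0.150% in the HDAC7 deletion (n = 4), 4.69 ± 0.225% in the FNBP4 PTC exon deletion (n = 4) and 4.41 ± 0.240% in the HNRNPD deletion (n = 2). The other lengths kept nearly the same order, with 4.76%, 4.61%, 4.64%, 4.45%, 4.11% and 3.90% in the same targets. The FNBP4 PTC exon and HNRNPD deletions were the lowest in both classes, and in exons of other lengths their highest library, at 4.2%, lay below the lowest of the other deletions, at 4.35%. The knockouts averaged 5.35 ± 0.325% (FNBP4), 4.98 ± 0.658% (HDAC7), 4.70 ± 0.424% (DDX5) and 4.47 ± 0.339% (DDX17) over exons divisible by 3 (SD, n = 2 each). Replicate 2 was higher than replicate 1 in every knockout and both classes, as in the HDAC7 knockout at 5.45% and 4.52%. Among exons divisible by 3 the order of the knockouts was the same in both replicates, from FNBP4 (5.12 and 5.58%) over HDAC7 and DDX5 to DDX17 (4.23 and 4.71%), and these differences were not tested.

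**Figure D3:**
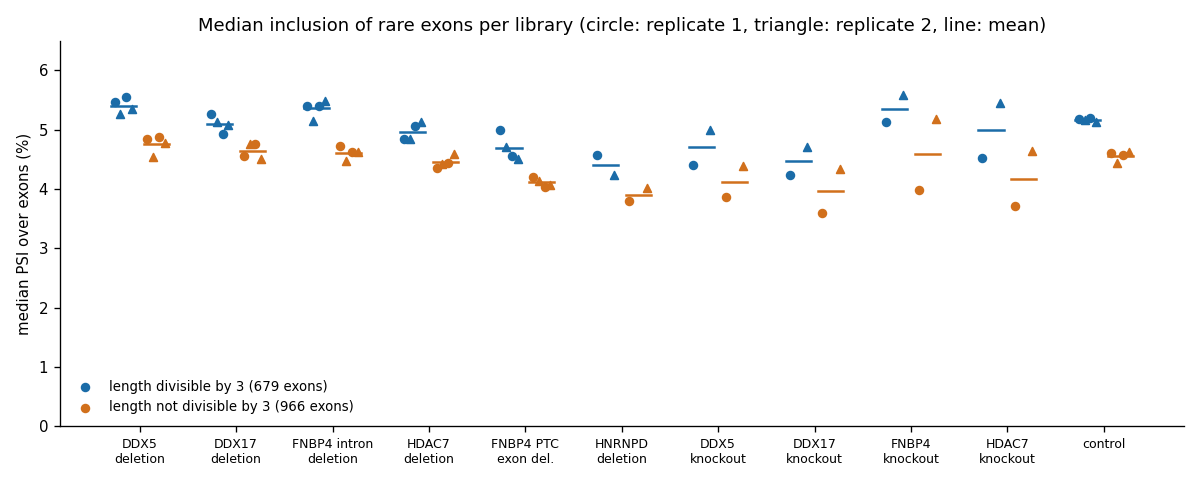
Median PSI over the tested rare exons in each library (vertical axis) by target (horizontal axis), with blue for lengths divisible by 3 and orange for other lengths, circles for replicate 1, triangles for replicate 2 and lines for the mean. Blue lies above orange in all 34 libraries, and the HNRNPD deletion is the lowest deletion in both classes.

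Over single exons the shifts were small. In the contrast of a target with the other targets of its kind, each weighted equally, the median change of the rare exons on the log2 scale of inclusion over exclusion reads was 0.105 in the DDX5 deletion, 0.103 in the DDX17 deletion, 0.055 in the FNBP4 intron deletion, 0.028 in the HDAC7 deletion, -0.107 in the FNBP4 PTC exon deletion and -0.159 in the HNRNPD deletion. The medians of all 213928 events tested were 0.055, 0.011, -0.003, -0.019, -0.025 and -0.011 in the same contrasts. Those of 1188 exons at 20 to under 80% control inclusion were 0.021, 0.034, 0.058, 0.021, -0.086 and -0.078. Part of these shifts was thus shared with exons of intermediate inclusion. Since 1 was added to both read counts, the ratio of an exon with few inclusion reads also depends on depth. Members had a median of 37 reads in DDX17 deletion hgRNA 1 replicate 2, and of 70 and 61 in the HNRNPD libraries. Whether depth bears on these medians was not tested. Lengths divisible by 3 and other lengths moved alike: -0.112 and -0.104 in the FNBP4 PTC exon deletion, and 0.098 and 0.119 in the DDX5 deletion. Among knockouts the medians of the rare exons were 0.153 (FNBP4), 0.034 (HDAC7), -0.062 (DDX5) and -0.103 (DDX17). In the same order they were -0.007, 0.009, -0.015 and 0.033 over all events. At 20 to under 80% they were 0.046, 0.065, -0.041 and -0.114.

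Few rare exons reached high inclusion in an edited group. Of the 1645, 633 (38.5%) had a group mean from 2 to under 20% in all 15 edited hgRNA groups, 40.6% of the exons divisible by 3 and 37.0% of the others. A group mean of 20% or more was reached in at least 1 edited group by 211 exons (12.8%), and of 50% by 2. Group means under 2% were held by 10.8 to 19.6% of the exons divisible by 3 and by 14.9 to 23.4% of the others in the edited groups, against 6.19 to 9.11% in the controls that chose them. The share was higher in the others within each of the 15 edited groups. The range of the 15 group means had a median of 6.14 points, 6.38 in exons divisible by 3 and 6.00 in the others.

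Differences were tested with limma over the 30 edited libraries, leaving out the controls that chose the members, and p-values were adjusted over all events. Over the 15 edited groups together 8 of 1645 rare exons (0.486%) passed an adjusted p of 0.05, 4 in each length class, close to the 0.369% of all events. Of all 213928 events 789 passed. A separate fit, chosen after seeing the data, took only the 40392 events of 1 to 99% mean inclusion. It called 14 of these events with its own estimate of the spread and its own adjustment, so it does not show where the 789 lie. In it 0 rare exons passed, and 0 with a pseudocount scaled to the reads as well, while in the fit of all events 285 had an unadjusted p under 0.05. Without 1 library the count was 35 (DDX17 deletion hgRNA 1 replicate 1), 21 (FNBP4 hgRNA 3 replicate 2), 16 (DDX17 deletion hgRNA 1 replicate 2), 0 (HNRNPD replicate 1), 7 (HDAC7 deletion hgRNA 1 replicate 1, FNBP4 hgRNA 3 replicate 1 or FNBP4 knockout replicate 2), and 2 to 5 without any of the other 23.

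The 8 exons lie in PLXNB1, NEK6, OPTN and NSD2 (divisible by 3) and WDR73, PREPL, SAT1 and TSPAN9 (not). The exon of PLXNB1, a semaphorin receptor, had the widest range of group means, at 1.08% in the HDAC7 knockout and 50.1% in HDAC7 deletion hgRNA 1, where the 2 libraries read 29.8 and 70.4% (adjusted p = 0.0458). It drew 20 to 83 reads per library and only 7 and 12 reads on its 2 inclusion junctions over the controls. Over the 15 group means its pattern was most like those of exons in FMR1 (Pearson r 0.816), NSMCE1 (0.801) and SMARCAL1 (0.779), and that of WDR73 like exons in SMURF2 (0.848), NEK1 (0.818) and CPNE7 (0.797). Group means share libraries, so these r are descriptions.

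SAT1 encodes the acetyltransferase that starts polyamine breakdown, and its 110-base exon brings a stop at base 12. It was included at 14.5 to 19.9% in the DDX5 deletion, and at 12.3 to 17.8%, 15.9 to 16%, 12.5 to 21.5% and 23.5 to 24.8% in the libraries of the FNBP4, DDX5, HDAC7 and DDX17 knockouts. In the other deletion libraries it ran from 4.34 to 19.4% with a median of 7.7%, and in the controls it read 1.80 to 6.54%. All 8 knockout libraries lay above all 4 controls, but the controls chose this exon for low inclusion, so that order is description only. Among the other deletion libraries 1, of FNBP4 hgRNA 3 at 19.4%, reached the range of the knockouts. The authors' deposited table gave SAT1 51.9 and 65.2 RPKM in the DDX5 deletions, against 72.4 RPKM in the controls. PREPL, a serine hydrolase, read 33 and 25.4% in the FNBP4 knockout and 3.60 to 9.67% in the HDAC7 deletion, against 11.9 to 18.9% in the controls.

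More rare exons were higher than lower in the DDX5 deletion. Against the other deletions 18 rare exons (1.09%) were higher and 2 (0.122%) lower at an adjusted p of 0.05, against 0.676% and 0.471% of all events. Of the 20, 9 were divisible by 3 and 11 not. Among events of 1 to 99% inclusion 5 were called, in EIF4A2, VTI1B, ABHD2, SDCCAG8 and FNBP4, where the background was 0.386%, and with the scaled pseudocount 2, in EIF4A2 and VTI1B, where it was 0.124%. The count fell to 4, 3, 4 and 5 without DDX5 deletion hgRNA 1 replicate 1, hgRNA 1 replicate 2, hgRNA 2 replicate 1 and hgRNA 2 replicate 2, to 11 without HNRNPD replicate 1, and was 32 without DDX17 deletion hgRNA 1 replicate 1.

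The stop-bearing exon of EIF4A2 was included at 20.4, 18.4, 16.4 and 17.8% in the DDX5 deletion. In the other 18 deletion libraries it ran from 3.44 to 8.91% with a median of 6.62%. All 4 libraries of the DDX5 deletion lay above every other deletion library, and above the controls, which read 5.97 to 7.91%. The mean was 18.2 ± 1.62% (SD, n = 4), against 6.21% over the other targets, a log2 change of 1.78 ± 0.25 (SE, limma, adjusted p = 0.00118), and the call held without any 1 library. The DDX5 knockout did not share that level, at 5.61 and 7.10%, while the FNBP4 knockout read 6.25 and 21.1%. EIF4A2 drew a median of 988 reads per library at this exon, with 418 reads on the upstream and 76 on the downstream junction over the controls. Its expression in the authors' deposited table was 260 and 276 RPKM in the DDX5 deletions, against 270 RPKM in the controls.

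The exon of VTI1B stood at 50.8, 48.4, 47.9 and 48.9% in the DDX5 deletion, against 10.6 to 36.3% with a median of 26.1% in the other deletions. Again all 4 libraries were above the rest, with a mean of 49.0 ± 1.25%, against 23.3% over the other targets (log2 change 1.67 ± 0.26, limma, adjusted p = 0.00357), and the call held without any 1 library. The DDX5 knockout read 37.6 and 33.7%, and the controls 10.9 to 20.1%. Over the controls 6 reads crossed the upstream and 88 the downstream junction, so the value rests on 1 side of the exon.

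SDCCAG8, a centrosomal protein of the cilium base, has a 96-base coding exon that was included at 15.3, 19.5, 13.1 and 19.2% in the DDX5 deletion and at 0 to 15.6% (median 6.30%) in the other deletions, so the groups overlapped slightly. The mean was 16.8 ± 3.15%, against 6.52% (adjusted p = 0.00568), and the call was lost without DDX5 deletion hgRNA 1 replicate 2 (highest adjusted p 0.0687) or hgRNA 2 replicate 2. ABHD2, a lipid hydrolase, has a 142-base exon in its 5′ UTR, at 10.0, 5.11, 7.09 and 6.21% in the DDX5 deletion and 0 to 5.13% in the others, so that 1 library overlapped, and its call was lost without DDX5 deletion hgRNA 1 replicate 1 (adjusted p 0.0597). TPM1, a tropomyosin that coats actin filaments, has a 126-base coding exon at 17.1, 16.5, 18 and 15.4% in the DDX5 deletion, above the 7.96 to 14.6% of all other deletions. It is the deepest of these exons, at a median of 4400 reads, and its mean was 16.8 ± 1.08%, against 10.7% (adjusted p = 0.0310). The adjusted p was 0.120 among events of 1 to 99%, and the call was lost without any library of the DDX5 deletion or HNRNPD replicate 1. Its highest values were in the DDX5 knockout, at 24.8 and 23%.

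Among the rare exons lower in the DDX5 deletion was one of RBM3, a cold-inducible RNA-binding protein. It read 0.93 to 1.39% in the DDX5 deletion and 2.42 to 11.4% in the other deletions, without overlap (log2 change -1.89 ± 0.45, adjusted p = 0.0432). The adjusted p exceeded 0.05 among events of 1 to 99% inclusion, at 0.0759, and the call was lost in 15 of 30 fits that left out 1 library.

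Further exons, chosen after their values were seen, lay higher in the DDX5 deletion. FN1, fibronectin of the extracellular matrix, has a 126-base exon at 23.8 to 26.4% in the DDX5 deletion and 13.6 to 20% in the other deletions, without overlap (mean 25.1 ± 1.30%, against 17.2%, adjusted p = 0.0237, and 0.129 among events of 1 to 99%). MSRB3, a methionine sulfoxide reductase, has a 164-base exon at 23.1 to 32%, against 6.71 to 24.9% (mean 27.8 ± 3.84%, against 15.6%, adjusted p = 0.0157, and 0.0667 among events of 1 to 99%). GRB10, an adaptor of insulin receptor signalling, has a 116-base exon with a stop at 19.2 to 31.4%, against 10.2 to 19.6% (mean 25.2 ± 5.26%, against 14.9%, adjusted p = 0.0344, and 0.106 among events of 1 to 99%). Each of these calls was lost without DDX5 deletion hgRNA 1 replicate 2 or either replicate of hgRNA 2, those of FN1 and GRB10 also without hgRNA 1 replicate 1 or HNRNPD replicate 1, and that of GRB10 also without FNBP4 hgRNA 2 replicate 1.

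**Figure D4:**
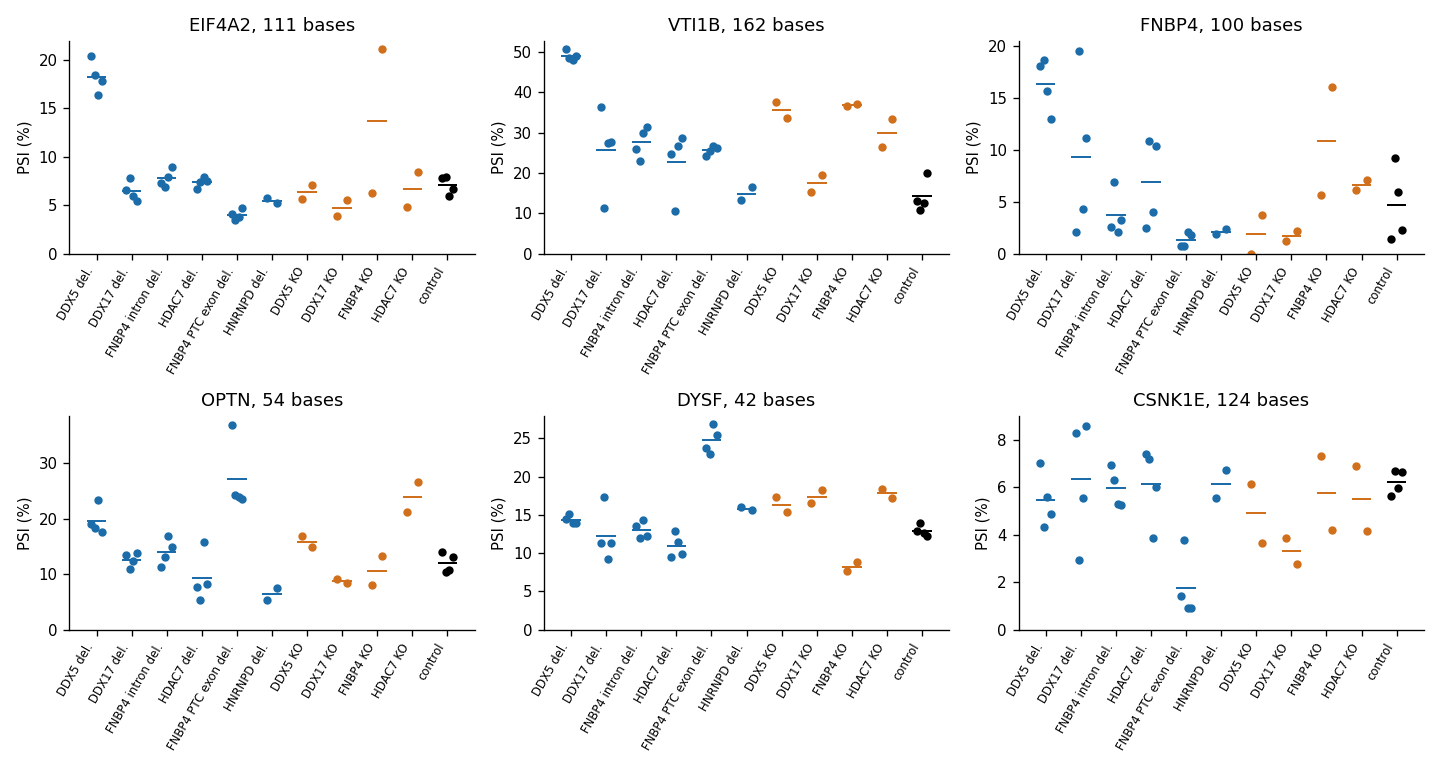
PSI in every library (vertical axis, percent) of 6 rare exons by target (horizontal axis), with deletions in blue, knockouts in orange, controls in black and lines for the mean. Among deletions EIF4A2 and VTI1B stand highest in the 4 DDX5 deletion libraries and OPTN and DYSF in the FNBP4 PTC exon deletion, where the means of CSNK1E and FNBP4 are lowest.

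More rare exons were lower than higher where the PTC exon of FNBP4 was deleted. There 11 (0.669%) were higher and 21 (1.28%) lower than in the other deletions, against 0.598% and 0.662% of all events. By length, 8 of the higher and 7 of the lower exons were divisible by 3, and 3 and 14 were not. In the fit of events of 1 to 99% inclusion 6 were called (OPTN, CSNK1E, FNBP4, DYSF, HIBADH and ETHE1), where the background was 0.23%, and with the scaled pseudocount also 6, with MED15 in place of FNBP4, where it was 0.213%. Leaving out 1 library gave 69 without DDX17 deletion hgRNA 1 replicate 1 or FNBP4 hgRNA 3 replicate 2, 20 without DDX5 deletion hgRNA 1 replicate 1, DDX5 deletion hgRNA 2 replicate 2, DDX17 deletion hgRNA 2 replicate 2 or HNRNPD replicate 2, 15 without FNBP4 hgRNA 3 replicate 1, and 6 and 5 without FNBP4 hgRNA 4 replicates 1 and 2.

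OPTN encodes optineurin, an autophagy receptor, and its 54-base rare exon lies in the 5′ UTR. It was included at 36.8, 24.2, 23.8 and 23.6% in the FNBP4 PTC exon deletion, against 5.28 to 23.3% with a median of 13.2% in the other deletions. The 4 libraries were the highest of all deletions, but 3 of them lay close to the highest of the rest, a DDX5 deletion library. The mean was 27.1 ± 6.47%, against 12.4% over the other targets, a log2 change of 1.49 ± 0.22 (limma, adjusted p = 0.00221), and the call held without any 1 library. The HDAC7 knockout also read 21.2 and 26.5%, and the controls 10.3 to 14%.

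DYSF encodes dysferlin, which acts in membrane repair, and its 42-base rare exon is coding. It stood at 23.8, 22.9, 26.9 and 25.4% in the FNBP4 PTC exon deletion and at 9.29 to 17.3% in the other deletions, with no overlap. The mean was 24.7 ± 1.76%, against 13.3% (log2 change 1.11 ± 0.17, limma, adjusted p = 0.00259), and the call held without any 1 library. The labelled FNBP4 knockout had the lowest values, at 7.63 and 8.85%, against 12.3 to 14% in the controls.

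CSNK1E, a casein kinase of the circadian clock, holds a rare exon without a matching annotated exon. It read 1.41, 3.77, 0.90 and 0.90% in the FNBP4 PTC exon deletion and 2.95 to 8.60% in the other deletions, so that 1 library overlapped (mean 1.75 ± 1.37%, against 6.00%; log2 change -1.63 ± 0.25, limma, adjusted p = 0.00297). The call held without any 1 library, but over the controls 108 reads crossed its upstream junction and 0 the downstream one. HIBADH, an enzyme of valine breakdown, was similar: its 187-base exon read 0.79 to 5.15%, against 4.36 to 8.80%, with 163 and 3 junction reads. ETHE1, a mitochondrial sulfur dioxygenase, read 0.57 to 0.79%, against 1.41 to 5.92%, with 1 and 38 junction reads. MED15, a subunit of Mediator, read 0 to 2.65%, against 1.51 to 21.1%, with 36 and 0 junction reads. The calls of HIBADH and ETHE1 were lost without either library of FNBP4 hgRNA 4 (highest adjusted p 0.0809 and 0.0892). That of MED15 was lost in 17 of 30 fits that left out 1 library (highest adjusted p 0.321), and its adjusted p was 0.111 among events of 1 to 99% inclusion.

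Within FNBP4 itself the 100-base rare exon read 0.71, 0.72, 2.08 and 1.76% in the PTC exon deletion, against 1.88 to 19.5% in the other deletions (log2 change -2.29 ± 0.44, adjusted p = 0.0129). It read 18, 18.6, 15.6 and 12.9% in the DDX5 deletion, against 0.71 to 19.5% with a median of 2.50% (log2 change 2.08 ± 0.44, adjusted p = 0.0237). One DDX17 deletion library, at 19.5%, lay above all of these. In the authors' deposited table FNBP4 stood at 35.2 and 27.2 RPKM in the PTC exon deletions and at 21 and 22.2 RPKM in the DDX5 deletions, against 14.2 RPKM in the controls. The rare exon lies downstream of the PTC exon and outside the guide sites that could be placed, which on GRCh38 are chr11:47731955-47731974 and chr11:47732365-47732387 for hgRNA 3 and chr11:47732188-47732207 for the Cas9 guide of hgRNA 4. It had 12 and 5 junction reads over the controls, its adjusted p in the PTC exon deletion was 0.215 with the scaled pseudocount, and both calls were lost without single libraries of their own deletion, all 4 for DDX5, and all but FNBP4 hgRNA 3 replicate 2 for the PTC exon.

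NEK1, a kinase of the DNA damage response, and WDR73, a WD-repeat protein, were the largest increases in the FNBP4 PTC exon deletion in PSI points, the measure of the rule for naming. The 84-base coding exon of NEK1 read 29, 32.5, 27.4 and 28.3%, above the 5.65 to 25.9% of the other deletions (mean 29.3 ± 2.25%, against 14.3%, adjusted p = 0.0136). The stop-bearing exon of WDR73 read 43.1, 34.3, 25.3 and 34.8%, against 10.4 to 27.3%, with 1 library inside that range (mean 34.3 ± 7.27%, against 19.2%, adjusted p = 0.00769). In both, the HNRNPD deletion was next, at 25.9 and 24.1% for NEK1 and 24.4 and 27.3% for WDR73. Among events of 1 to 99% inclusion the adjusted p of each was 0.0583. The calls were lost without FNBP4 hgRNA 3 replicate 1 or hgRNA 4 replicate 2, and for NEK1 also hgRNA 4 replicate 1. The largest decreases in PSI points were in RERE, a nuclear corepressor, and TAGLN, an actin-binding protein of smooth muscle. RERE read 8.84 ± 5.75%, against 18.9% (adjusted p = 0.0427, called in 10 of 30 fits that left out 1 library). TAGLN read 8.48 ± 2.02%, against 15.5% (adjusted p = 0.0232, lost without FNBP4 hgRNA 3 replicate 2 or either replicate of hgRNA 4). Both overlapped the other deletions, TAGLN at 5.62 to 10.2%, against 6.27 to 25.6%. Over the controls TAGLN had 4 upstream and 149 downstream junction reads. Among events of 1 to 99% inclusion the adjusted p of RERE and TAGLN were 0.124 and 0.137. CD44, the hyaluronan receptor, has a 204-base coding exon at 1.47 to 7.72%, against 4.21 to 30.5% (adjusted p = 0.0439, called in 9 of 30).

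Smaller differences in that deletion were called in genes chosen after their values were seen. CSNK1A1, casein kinase 1 alpha, has an 84-base coding exon at 2.98, 5.38, 5.89 and 5.47%, against 6.39 to 16.7% in the other deletions, without overlap (adjusted p = 0.0308, lost without FNBP4 hgRNA 3 replicate 1, either replicate of hgRNA 4 or HNRNPD replicate 2). GSN, the actin-severing gelsolin, has a 62-base exon at 15.8 to 22.2%, against 4.94 to 18.5% (mean 19.4 ± 3.12%, against 10.3%, adjusted p = 0.0158), lost without FNBP4 hgRNA 3 replicate 1 or either replicate of hgRNA 4. The GSN exon had 10 upstream and 65 downstream junction reads over the controls. Among events of 1 to 99% their adjusted p were 0.142 and 0.0867. The stop-bearing exon of EIF4A2 read 4.07, 3.44, 3.81 and 4.69% in the PTC exon deletion, the lowest of all deletions, against 5.26 to 20.4% (adjusted p = 0.0323, and 0.123 among events of 1 to 99%), a call lost without any of these 4 libraries or either HNRNPD library. The DDX5 deletion stands among the others in this comparison.

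In the HNRNPD deletion 0 rare exons were higher and 11 (0.669%) lower than in the other deletions, against 0.212% and 0.267% of all events, 4 divisible by 3 and 7 not. With 2 libraries this comparison is thin. Of the 11, NEK6 was called among events of 1 to 99% (adjusted p = 0.0477, background 0.0842%) and 0 with the scaled pseudocount (background 0.0322%). Without HNRNPD replicate 1 the count was 0 and without replicate 2 it was 1. It was 6 without FNBP4 hgRNA 4 replicate 1, 7 without DDX5 deletion hgRNA 2 replicate 1 or DDX17 deletion hgRNA 2 replicate 2, 22 and 23 without DDX17 deletion hgRNA 1 replicates 1 and 2, and 21 without FNBP4 hgRNA 3 replicate 2.

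NEK6 encodes a mitotic kinase, and its 165-base exon crosses a coding edge and has a stop as its first codon, which it shares with the exon before it. It was included at 6.37 and 8.35% in the HNRNPD deletion, below the 10.5 to 37.2% (median 24.4%) of the other 20 deletion libraries (log2 change -1.99 ± 0.32, limma, adjusted p = 0.00878). In the DDX5 deletion it read 32.5, 32.9, 33.4 and 30.5%, against 6.37 to 37.2% in the others (adjusted p = 0.0304), and 2 FNBP4 intron deletion libraries (37.2 and 35.1%) and 1 DDX17 deletion library (35.2%) were above all 4. The controls read 10.6 to 19.9%, so the HNRNPD libraries lay below them. Over the controls 16 reads crossed the upstream and 197 the downstream junction. SEC13, a coat protein of the COPII vesicle and the nuclear pore, had its 46-base exon at 7.82 and 9.71% in the HNRNPD deletion and 15.4 to 43.5% in the others (adjusted p = 0.0178), with 0 and 191 junction reads. The exon of MSRB3 read 6.71 to 8.48% in the HNRNPD deletion and 12.5 to 32% in the others (adjusted p = 0.0208), and that of MYLK, the myosin light chain kinase, 7.42 to 7.91%, against 10.3 to 29% (adjusted p = 0.0270). GRB10 has a 96-base exon at 1.96 to 2.17%, against 2.70 to 22.3% (adjusted p = 0.0316). In these 5 exons the 2 HNRNPD libraries lay below all other deletion libraries, and each call was lost without either of the 2. Among events of 1 to 99% the adjusted p of SEC13, MSRB3, MYLK and GRB10 were 0.0626, 0.123, 0.144 and 0.130.

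Among knockouts, 1 rare exon was called. The 180-base exon of NSD2, a histone H3 lysine 36 methyltransferase, read 4.55 and 3.54% in the DDX17 knockout and 9.09 to 18.4% in the other 6 knockout libraries, without overlap (log2 change -1.81 ± 0.31, adjusted p = 0.0396). The background of the DDX17 knockout was 0.00654% higher and 0.0192% lower. The adjusted p was 0.0824 among events of 1 to 99% (background 0.0421%) and 0.108 with the scaled pseudocount (background 0.047%), and the call held in 9 of 30 fits that left out 1 library. The HNRNPD deletion was also low, at 4.31 and 4.27%, as were the controls, at 4.90 to 8.91%.

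In limma 0 rare exons were called in the DDX17, HDAC7 and FNBP4 intron deletions and in the DDX5, FNBP4 and HDAC7 knockouts. The backgrounds were 0.00514%, 0.015% and 0.0014% in these deletions and 0.00327%, 0.0192% and 0.00327% in these knockouts. An unadjusted p under 0.05 was found for 10.2%, 10.5% and 6.63% of the 1645 rare exons in the deletions and 8.27%, 10.2% and 7.84% in the knockouts, and with precision weights 5, 3, 0, 4, 19 and 1 were called. The same weights called 0.144%, 0.127% and 0.0276% of all events in the DDX17, HDAC7 and FNBP4 intron deletions and 0.115%, 0.62% and 0.165% in the DDX5, FNBP4 and HDAC7 knockouts. The count of 0 called rare exons in the DDX17 deletion did not hold without DDX17 deletion hgRNA 1 replicate 1. In that fit hgRNA 1 rested on replicate 2 alone. This library had the fewest reads on members of all 34, at 218085 with a median of 37 per member. Whether its depth bears on the count was not tested. The HDAC7 deletion had 3 without HDAC7 deletion hgRNA 1 replicate 1 and 1 without DDX17 deletion hgRNA 1 replicate 2. The counts of 0 in the DDX5, FNBP4 and HDAC7 knockouts also did not hold in every fit that left out 1 library. Between the 2 hgRNAs of a target no rare exon was called in any of the 5 targets with 2, where 0 to 5 of all events were.

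**Figure D5:**
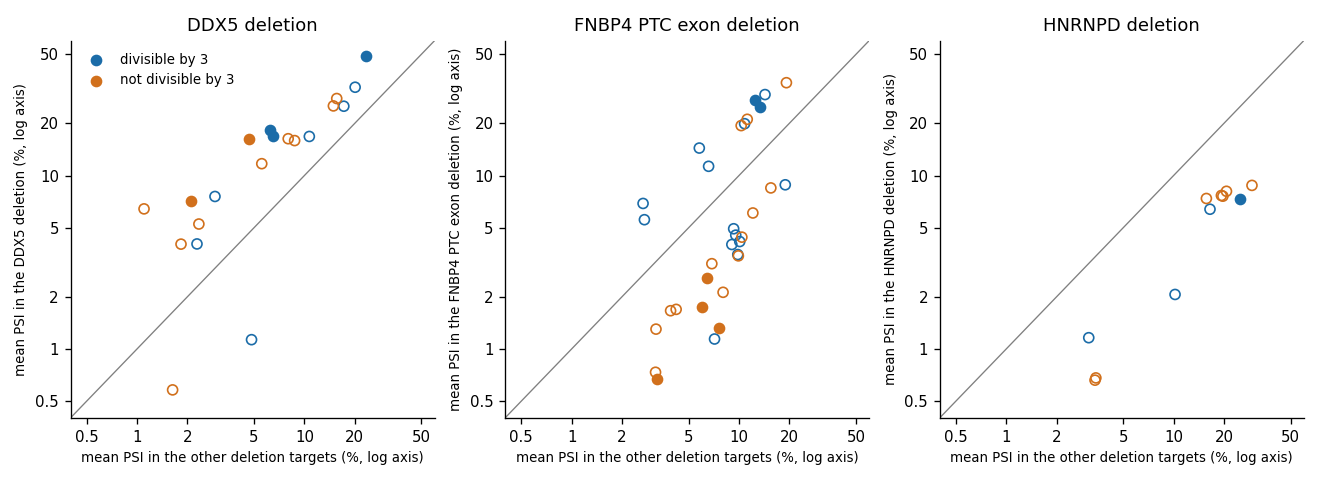
Mean PSI of each called rare exon in the named deletion (vertical axis, percent, log) against its mean over the other deletion targets (horizontal axis, percent, log), blue for lengths divisible by 3 and orange for others, filled where the exon was also called among events of 1 to 99% inclusion. The DDX5 deletion has 18 of 20 points above the line of equal inclusion, the FNBP4 PTC exon deletion 11 of 32 and the HNRNPD deletion 0 of 11.

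Over all tests 58 rare exons in 55 genes were called at least once, 27 divisible by 3 and 31 not, out of 679 and 966 tested. In the DDX5 deletion 1.33% of the exons divisible by 3 and 1.14% of the others were called, in the FNBP4 PTC exon deletion 2.21% and 1.76%, and in the HNRNPD deletion 0.589% and 0.725%. The difference between the classes was not tested. Exons with an in-frame stop made up 5 of the 20, 7 of the 32 and 2 of the 11 called exons. Among all members, tested or not, they were 552 of 2823. This is not the share among the 1645 tested members, from which alone calls could come. Exons whose frame could not be read are included in each of these totals. By the log2 fold changes in the authors' deposited table, hosts of the exons called higher were below the controls in 10 of 18 genes in the DDX5 deletion (55.6%, median -0.04) and in 8 of 11 in the FNBP4 PTC exon deletion (72.7%, median -0.15), against 44.3% and 46.8% of the 1242 hosts of all tested rare exons in the same deletions in the authors' deposited table. Hosts of the exons called lower were below the controls in 9 of 19 genes in the FNBP4 PTC exon deletion and in 4 of 11 in the HNRNPD deletion, by the same authors' deposited table. These shares were not tested.

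By gene list the counts were small, and 58 of all 1645 tested rare exons (3.53%) were called at least once. Called at least once were 0 of 16 tested exons of the SR protein list, 1 of 18 of hnRNPs and other regulators (RBM3), 1 of 18 of the core spliceosome (FNBP4), 0 of 6 of decay factors, 0 of 6 of DEAD and DEAH box helicases, 1 of 30 of chromatin regulators (NSD2), 0 of 12 of DNA damage genes and 3 of 25 of the actin and adhesion list (TPM1, CD44 and FN1). SRSF11, an SR-related splicing protein, has a stop-bearing exon that read 0 to 7.87% over the edited libraries (median 3.52%), and 1.95 to 5.36% in the controls (F test adjusted p = 0.391). QKI, an RNA-binding splicing regulator, has a 122-base exon at 15.7% in the DDX17 knockout and 0.880% in FNBP4 hgRNA 2, against 3.16 to 5.88% in the controls (F test adjusted p = 0.190). DDX39A, a DEAD box RNA helicase, has a 58-base stop-bearing exon at 0.25 to 20.0% over the edited libraries, and 7.69 to 12.9% in the controls (F test adjusted p = 0.334). None of these passed the test.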

How the data were processed

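Percent inclusion (PSI) per event and library, with inclusion and exclusion reads in a quality string, came from the authors' deposited table, which by its name was made with vast-tools. These read counts are deposited as estimates and need not be whole. RPKM per hgRNA, with replicates combined and 1 column for all controls, and log2 fold changes against the controls came from the authors' deposited expression table. Per the submitters' processing notes Salmon 1.10 and edgeR (version not given) were used. For the splicing table an aligner and a build were not given in the sources used here, and 81.5% of the exons looked up had a match in GENCODE v29 (GRCh38). Values of 2 further libraries in that table were left out, as was a deposited score headed only as a significance.

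For each of 213928 events with at least 20 reads in each of 30 edited libraries, log2((inclusion reads + 1)/(exclusion reads + 1)) was fitted with limma 3.58.1 in R 4.3.3, with a coefficient for each of 15 groups (15 residual and 4.83 prior degrees of freedom), a moderated F test and 10 contrasts of a target with the other deletions or knockouts, and Benjamini-Hochberg adjustment over all events. All adjusted p-values are limma's. Calls were tested on simulated data, where this fit also called more events that had not been changed than events that had, almost all of them outside the rare exons, while the fit with the scaled pseudocount called few unchanged events. The simulation gave every event the same noise setting and changed only rare exons, in the DDX5 or HNRNPD deletion. It therefore cannot show where false calls fall in the real data. Alternatives were a pseudocount of 0.5, 10 reads, precision weights, a replicate block, each library left out, and, added after seeing the data, events of 1 to 99% inclusion without and with a scaled pseudocount. Replicates are labelled biological duplicates, and p-values measure the spread between them. Tables were made with Python 3.11.15, numpy 2.4.6, pandas 2.3.3 and scipy 1.17.1, figures with matplotlib 3.10.9. No genome sequence was used: exon sequences and frames come from transcripts.

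The members and gene lists were chosen with earlier results of these data known. Named exons follow a rule: up to 6 per length class with the widest range of group means among F test calls, up to 2 higher and 2 lower per contrast by PSI points, members in the edited genes, up to 4 per list and the neighbours of each bound. Exons of EIF4A2, SDCCAG8, ABHD2, TPM1, DYSF, CSNK1E, HIBADH, ETHE1, MED15, CD44, FN1, MSRB3, GRB10, CSNK1A1, GSN and MYLK were added after their values were seen. Some named exons are not reported here.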

Additional observations from a re-analysis of the deposited data

How the results depend on the processing

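The shares by length were stable. Under 40 reads, inclusion of 2 to under 10%, 1 exon per gene, balanced junctions and each control left out, the share divisible by 3 of all rare exons and of coding rare exons moved by less than its interval. Leaving out controls gave 40.2 to 41.1% and 74.8 to 76.3%.

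Counts of called exons depended on the fit. Exons differing over the 15 groups (8) were 2 with a pseudocount of 0.5, 40 with precision weights, 5 with the replicate block and 0 in both fits of events of 1 to 99% inclusion. With the pseudocount of 0.5 and the replicate block 0.29% and 0.318% of all events were called. In the fits of events of 1 to 99% it was 0.0347%, and 0.052% with the scaled pseudocount. Precision weights gave 97 (DDX5 deletion), 5 (DDX17 deletion), 3 (HDAC7 deletion), 45 (HNRNPD deletion), 4 (DDX5 knockout), 7 (DDX17 knockout), 19 (FNBP4 knockout) and 1 (HDAC7 knockout), where 4.08%, 0.144%, 0.127%, 2.48%, 0.115%, 0.319%, 0.62% and 0.165% of all events were called in the same order, and 0.593% in the F test. A pseudocount of 0.5 gave 18 (FNBP4 PTC exon deletion), 7 (HNRNPD deletion) and 2 (DDX5 knockout), where 0.654%, 0.268% and 0.0131% of all events were called. A minimum of 10 reads gave 20 (HNRNPD deletion) and 0 (DDX17 knockout), where 0.581% and 0.0202% of 277698 events were called. Events of 1 to 99% gave 5 (DDX5 deletion), 6 (FNBP4 PTC exon deletion), 1 (HNRNPD deletion) and 0 (DDX17 knockout), and with the scaled pseudocount 2, 6, 0 and 0. The cause of these moves was not tested, except that fewer events were tested at 1 to 99%. Leaving out 1 library gave 0 to 35 for the F test, 3 to 32 (DDX5 deletion), 0 to 42 (DDX17 deletion), 0 to 0 (FNBP4 intron deletion), 0 to 3 (HDAC7 deletion), 5 to 69 (FNBP4 PTC exon deletion), 0 to 23 (HNRNPD deletion), 0 to 2 (DDX5 and DDX17 knockouts) and 0 to 1 (FNBP4 and HDAC7 knockouts). Of 397 values of 11 named results under other settings 297 kept their call, 100 lost it and 0 reversed.

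Replicate numbers did not pair the samples over all groups: 11 of 105 pairs of groups correlated above 0.1 (median 0.0066), among them all 6 pairs of knockouts (0.229 to 0.272). The highest was 0.375, between DDX17 deletion hgRNA 1 and HDAC7 deletion hgRNA 1. Both of these groups also correlated with the DDX5 and FNBP4 knockouts, at 0.109 to 0.15. With the replicate block the DDX17 knockout had 2 called exons (0.0271% of all events were called), and in the 8 knockout libraries alone with the block 0. Depth limits single exons, with a median of 5.09 inclusion reads per tested exon and library.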
